A study of Mus musculus with 18 samples.

Results

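The mouse embryonic stem cell line E14 was compared with 2 clonal lines in which Nsd1 had been disrupted, here called KO-1 and KO-2, and the subject here is how far these clones stood apart from each other on the last day of differentiation. The comparison rests on 4 of the 18 libraries: 2 of KO-1 and 2 of KO-2, all collected on day 4 after leukemia inhibitory factor and the feeder layer of mouse embryonic fibroblasts were withdrawn. They were picked out by their labels, with earlier results of these data known, and every gene in the deposited table was compared. In both clones exon 5 of Nsd1 had been deleted with a pair of Cas9 ribonucleoproteins cutting in the introns on either side, in E14 cells whose Nsd1 gene already carried a 3xFlag tag, so that both clones share the tag as well as the deletion. The other libraries were wild type (WT) E14 on days 0, 2 and 4 and both clones on days 0 and 2, with 2 replicate cultures of each line and day. Polyadenylated RNA was sequenced, and the deposited table gives 20703 genes as log2 values after a variance stabilizing transformation (VST). Each side of the comparison is a single clone of the same genotype, so a difference between the clones and a difference between the cultures grown from them cannot be told apart, and adjusted p-values rest on the spread between replicate cultures, pooled over all 9 groups of line and day, not between independent clones.

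NSD1 is a histone methyltransferase that places the dimethyl mark on lysine 36 of histone H3, a mark known to recruit DNA methyltransferases and to limit the spread of Polycomb repression. When mouse embryonic stem cells leave the naive state, transcription factors such as Tfcp2l1, Klf4, Esrrb and Nanog decline, formative epiblast genes such as Fgf5 and Otx2 come on, and primitive streak genes such as T and Eomes follow. A clonal line descends from a single cell, so whatever that cell carried by way of imprints, copy number or culture adaptation is shared by every library made from it.

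The day 4 libraries held 13772529 and 23362270 counted reads in KO-1 and 21184172 and 16489159 in KO-2, within the range of 9309874 to 23921193 over the series. These totals may count both mates of a read pair. The values inverted to whole counts, and levels below are those counts divided by the size factor of the library, called normalized counts. Clone gaps are KO-1 minus KO-2 on the log2 VST scale unless stated otherwise. This scale compresses changes of genes with few reads, and the ratio of mean normalized counts is therefore given beside the gaps that matter most. A gene was called when limma gave an adjusted p below 0.01 and the gap exceeded 0.58 on the log2 scale.

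The targeted gene was checked first. Nsd1 had 1103 and 910 normalized counts in KO-1 on day 4, 575 and 684 in KO-2 and 2425 and 2111 in WT. Both clones therefore lay below WT without overlap, although reads were still assigned to the gene, from exons that a count per gene does not show. The clones also differed from each other, by 0.41 ± 0.08 (SE, n = 2 per clone, adjusted p = 0.0029), which did not reach the threshold for size. After the transcript length trend described next was removed, the gap of Nsd1 was 0.16 with an adjusted p of 0.061. The Y-linked gene Kdm5d had 0 and 3.79 normalized counts in WT on day 4, 575 and 484 in KO-1 and 260 and 292 in KO-2, and whether the WT cells sequenced are the direct parent of both clones was not tested.

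The libraries stood apart from each other in a way that followed transcript length, and this bears on most genes below. Over 10215 genes with a mean normalized count above 100 and an annotated transcript, the day 4 gap correlated with the log2 length of the longest transcript with r = 0.64 (Spearman rho = 0.66), across genes of the same 4 libraries. Genes with transcripts under 1 kb had a median gap of -0.21 and genes over 8 kb a median gap of 0.26. Both KO-1 libraries carried the trend, with r = 0.42 in replicate 1 and 0.24 in replicate 2, against -0.11 and -0.03 in KO-2. The trend was present between the clones on day 0 (r = 0.52) and had the opposite sign on day 2 (r = -0.46). On day 0 r was 0.23 in KO-1 replicate 1 but -0.01 in replicate 2, against -0.08 and -0.08 in KO-2. On day 2 it was -0.11 and 0.11 in KO-1 and 0.16 and 0.27 in KO-2. The part of the trend in the gaps was not tested beyond the removal described here. Each gap is therefore given as deposited and, where it matters, after the trend was removed from each library, a step that was chosen after the trend had been seen.

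**Figure D1:**
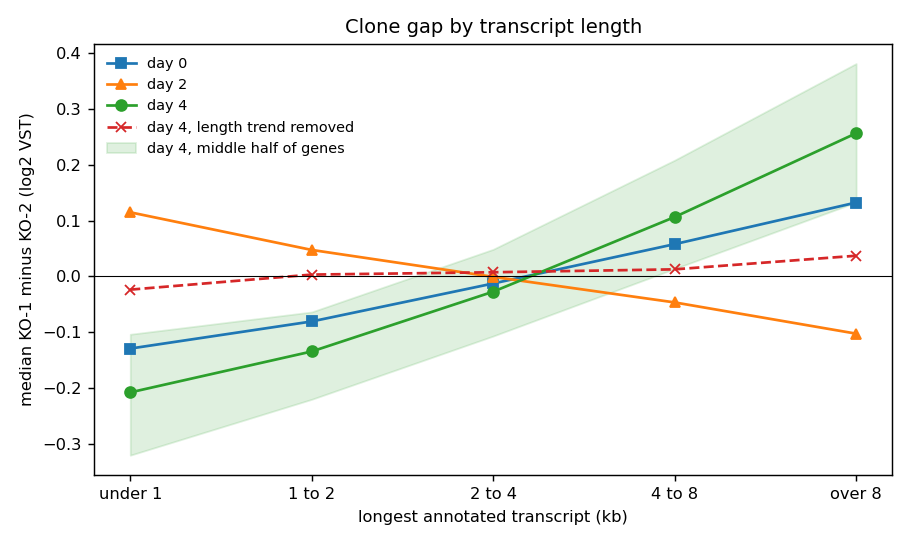
Median clone gap (KO-1 minus KO-2, log2 VST) of genes grouped by the length of their longest annotated transcript in kb, for days 0, 2 and 4, with the interquartile range shaded for day 4. On day 4 the median rose from -0.21 for genes under 1 kb to 0.26 for genes over 8 kb, the day 2 line ran the other way, and the dashed line shows day 4 after the trend was removed.

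On day 4, 52 genes separated the clones, 0.251% of the 20703 genes tested. The spread was estimated over all 18 libraries: limma called 30 genes when only the knockout libraries were fitted and 0 on the 4 day 4 knockout libraries alone, where 4471 had an unadjusted p under 0.05. Of the 52, 32 were higher in KO-1 (0.155%) and 20 were higher in KO-2 (0.0966%), and for all 52 the libraries of one clone lay wholly above those of the other, as was the case for 51.6% of all genes. At an unadjusted p under 0.05 the share was 25.3%. Limma-voom on the recovered counts called 462 genes (2.23%), among them all 52. With the length trend removed, 15 genes were called (0.0725%), of which 11 belonged to the 52, and none of the 52 changed direction. The 32 genes higher in KO-1 had a median transcript length of 8908 bases and the 20 genes higher in KO-2 one of 1289, against 3543 for all 10215 genes. The count also depended on single libraries: it was 22 without KO-1 replicate 1, 194 without KO-1 replicate 2, 21 without KO-2 replicate 1 and 50 without KO-2 replicate 2. Whichever of the 4 was left out, 12 of the 52 genes were called. Such a fit leaves 1 library in a clone, which is assumed to vary like those of the other groups. These 12 were Tfcp2l1, Fndc3c1, Zbed6, Nefm, Lrp2, Ago2, Deptor, Fgf5, Lefty1, Grb10, Tmsb4x and H13. The 11 genes called both as deposited and with the length trend removed are described first, and 6 of them are among these 12.

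Among these 11, 8 were higher in KO-1 and included genes of several roles. Tfcp2l1, a transcription factor of the naive state that lies on chromosome 1, showed the largest called gap as deposited. It did not rank first with the length trend removed or by limma-voom. Its normalized counts were 2788 and 2317 in KO-1, 951 and 1105 in KO-2 and 434 and 393 in WT. Both clones thus kept more of it than WT, KO-1 most of all. The gap was 0.97 ± 0.09 (SE, n = 2 per clone, adjusted p = 6.4e-06), or 2.48-fold, and 0.71 with the length trend removed. On day 2 the clones had overlapped, at 1580 and 1996 in KO-1 and 1592 and 1759 in KO-2.

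Fgf5, a secreted growth factor of the formative epiblast, was near 0 in every line on day 0 and stood at 631 and 663 normalized counts in KO-1 on day 4. KO-2 reached 239 and 246, and WT 1102 and 1119. KO-1 therefore lay between KO-2 and WT, with a gap of 0.68 ± 0.07 (SE, n = 2 per clone, adjusted p = 8.0e-06), or 2.67-fold. The difference was already visible on day 2, with 216 and 140 normalized counts in KO-1 and 39.8 and 32.7 in KO-2. Removing the length trend widened the gap to 0.75.

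Fndc3c1, an X-linked gene for a fibronectin type III domain protein, followed the same order. It had 642 and 597 normalized counts in KO-1, 181 and 192 in KO-2 and 2338 and 2079 in WT, a gap of 0.79 ± 0.06 (SE, n = 2 per clone, adjusted p = 1.2e-07) or 3.32-fold between the clones. Nefm, which encodes a neurofilament subunit, had 643 and 679 in KO-1, 214 and 248 in KO-2 and 944 and 921 in WT. Its gap was 0.73 ± 0.05 (SE, n = 2 per clone, adjusted p = 6.1e-08). For both genes the gap hardly moved when the length trend was removed, to 0.71 and 0.72.

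Tgfbr3, the TGF-beta co-receptor betaglycan, had 377 and 267 normalized counts in KO-1, 74.9 and 79.3 in KO-2 and 126 and 107 in WT. Here KO-1 stood above WT and KO-2 below it. Its ratio of 4.17 between the clones came with a VST gap of only 0.68 ± 0.06 (SE, n = 2 per clone, adjusted p = 3.4e-06), since the gene was lowly expressed. Acvr2b, a receptor for activins and Nodal, had 1818 and 1385 in KO-1 and 854 and 908 in KO-2, with WT at 1558 and 1402. The remaining genes of this set were Klhl11, an adaptor of cullin ubiquitin ligases, with 663 and 496 in KO-1 and 217 and 223 in KO-2, and Xlr3b, an X-linked and imprinted gene. Xlr3b had 293 and 369 normalized counts in KO-1, 104 and 101 in KO-2 and 2.01 and 8.21 in WT, so that both clones held far more of its RNA than WT. Its near-identical neighbors Xlr3a and Xlr3c can share reads with it.

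KO-2 was higher for 3 of the 11 genes. H13, which encodes signal peptide peptidase and lies on chromosome 2, had 594 and 677 normalized counts in KO-1, 1550 and 1614 in KO-2 and 1242 and 1243 in WT. KO-1 thus had less than WT and KO-2 more. The gap was -0.87 ± 0.06 (SE, n = 2 per clone, adjusted p = 5.9e-08), with KO-2 2.49-fold higher, and it was -0.97 with the length trend removed. Grb10, an imprinted adaptor that dampens insulin and growth factor signaling, had 3789 and 3305 in KO-1, 6020 and 6259 in KO-2 and 4087 and 3834 in WT. Its gap of -0.70 ± 0.06 (SE, n = 2 per clone, adjusted p = 1.5e-06) became -0.84 with the trend removed. Col1a1, a collagen of fibroblasts, had 282 and 313 in KO-1, 717 and 658 in KO-2 and 1644 and 1522 in WT.

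Col1a1 is also a marker of the feeder cells present until day 0, when it had 2509 and 2455 normalized counts in KO-1 and 2994 and 2971 in KO-2. The 15 feeder fibroblast markers summed to 2278 and 2201 normalized counts in KO-1 on day 4 and to 3289 and 3185 in KO-2, against 7725 and 7807 in KO-1 and 8836 and 9012 in KO-2 on day 0. Of the 15 markers, 8 lay higher in KO-2 without overlap and 1 lay higher in KO-1, against 25.5% and 26.1% of all genes. None of the 15 was at 0 in all day 4 knockout libraries, where the most abundant was Mmp2. While the sum fell, Mmp2 rose from 519 and 572 on day 0 to 1116 and 1115 on day 4 in KO-1. In KO-2 it rose from 601 and 667 to 1453 and 1415. The median gap of the 15 markers was -0.07 against 0.00 for all genes on the VST scale. By limma-voom it was -0.45 against 0.01, and 2 markers were called, both higher in KO-2, against 2.23% of all genes called. The part of carried-over fibroblasts in the Col1a1 gap was not tested, and in bulk RNA fewer cells of a type and less RNA per cell cannot be told apart.

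**Figure D2:**
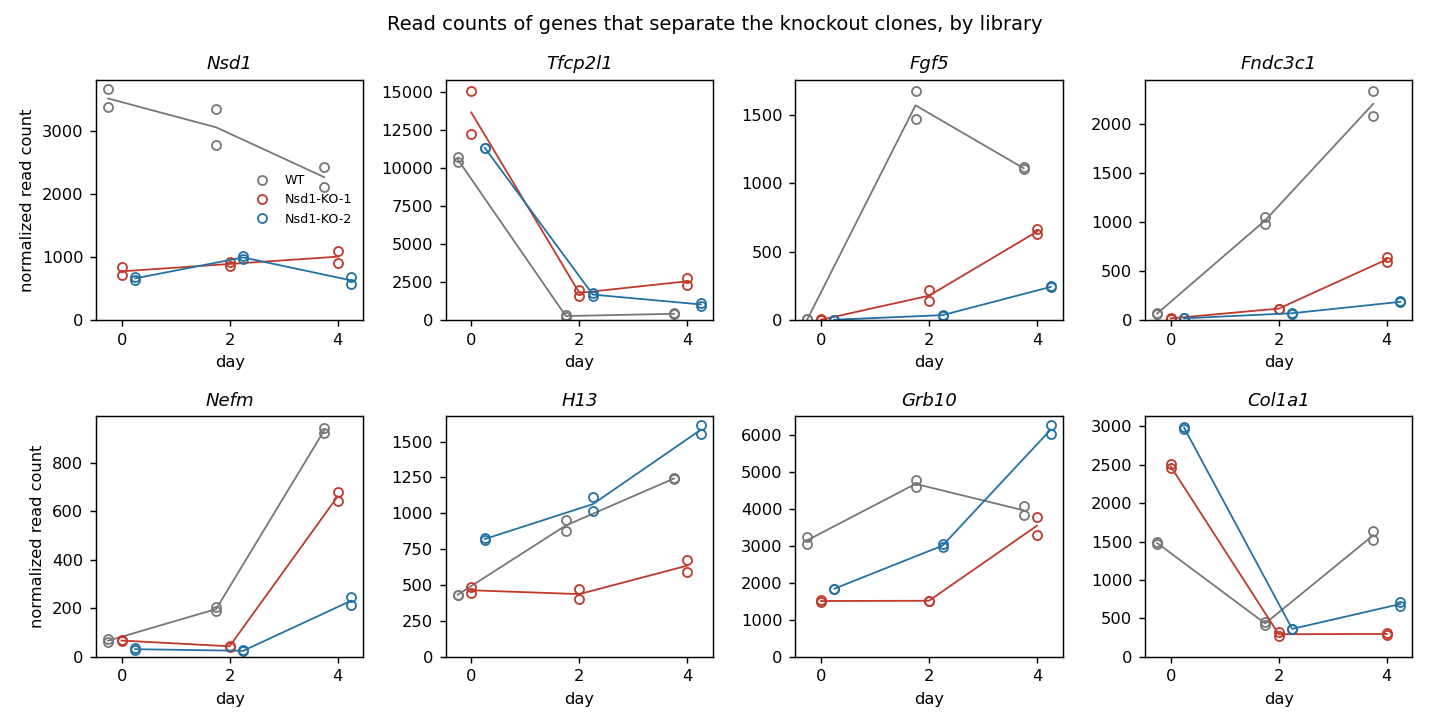
Normalized read counts of 8 genes by day, each circle 1 library and each line joining the means of 2 libraries for WT (grey), KO-1 (red) and KO-2 (blue). Nsd1 was below WT in both clones on every day, Tfcp2l1, Fgf5, Fndc3c1 and Nefm were higher in KO-1 on day 4, and H13, Grb10 and Col1a1 were higher in KO-2.

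The remaining 41 genes were called only as deposited, and 24 of these were higher in KO-1. Most had long transcripts, and their gaps shrank when the length trend was removed. Zbed6, a transcription factor encoded within an intron of another gene whose reads it may share, went from 0.78 to 0.54, and the mTOR inhibitor Deptor from 0.72 to 0.52. Larger losses were seen for the endocytic receptor Lrp2, from 0.72 to 0.33, the RNA interference effector Ago2, from 0.72 to 0.34, and the ubiquitin ligase Huwe1, from 0.70 to 0.29. Igsf9b, an adhesion molecule, went from 0.71 to 0.39. Tet1, the dioxygenase that oxidizes 5-methylcytosine, went from 0.68 to 0.33, with 4021 and 3146 normalized counts in KO-1 and 1904 and 2088 in KO-2. The imprinted, retrotransposon-derived gene Peg10 had 74036 and 57008 in KO-1 and 36637 and 39086 in KO-2, and its gap went from 0.77 to 0.52. Nes, the intermediate filament nestin, went from 0.59 to 0.42.

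The 17 such genes higher in KO-2 were mostly short. Tmsb4x, an actin-binding thymosin, went from -0.77 to -0.52 and Lefty1, a secreted Nodal antagonist, from -0.70 to -0.46. Lefty1 had 4929 and 5466 normalized counts in KO-1 and 9033 and 8587 in KO-2, while WT held 613 and 683. Dnmt3l, the cofactor of the de novo DNA methyltransferases, had 4942 and 5628 in KO-1, 8645 and 8217 in KO-2 and 1227 and 1185 in WT, and its gap went from -0.62 to -0.41. Phlda2, an imprinted growth suppressor, went from -0.59 to -0.36, and the ferritin heavy chain Fth1 from -0.65 to -0.47. For the ribosomal protein gene Rps12 the gap went from -0.66 to -0.44 and for Rpl14 from -0.62 to -0.32. The ferritin pseudogene Ftl2-ps, whose reads may be shared with its parent gene, went from -0.66 to -0.31, and the glutathione transferase Gsta4 from -0.62 to -0.31. Acta2, smooth muscle actin, went from -0.61 to -0.47. The mitochondrially encoded mt-Nd4 and mt-Cytb had gaps of -0.68 and -0.59, which after removal of the trend were -0.39 (adjusted p = 0.135) and -0.26 (adjusted p = 0.121). Of all 52 genes, 44 kept an adjusted p below 0.01 in that fit.

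**Figure D3:**
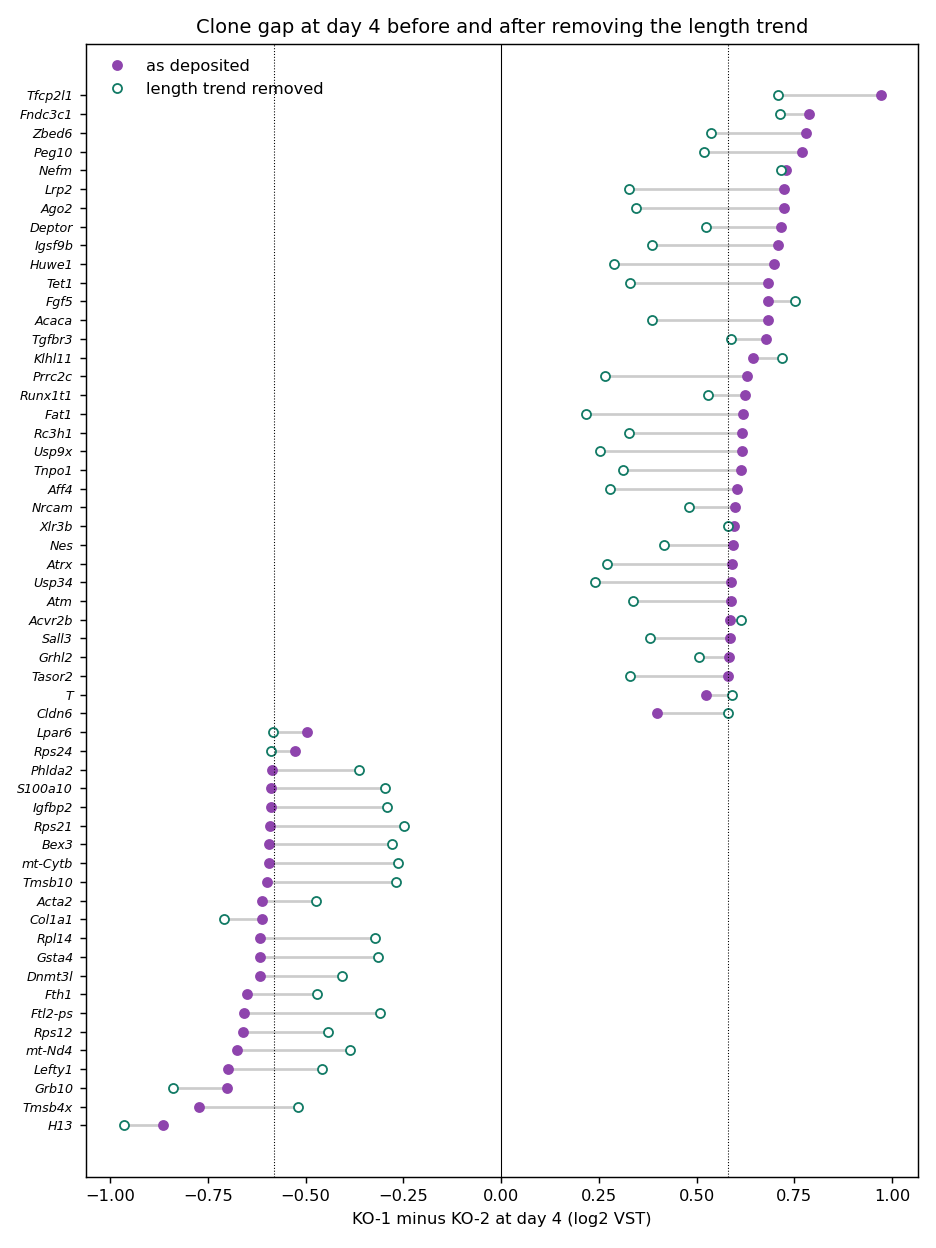
Clone gap on day 4 (KO-1 minus KO-2, log2 VST) of the 52 genes called as deposited and the 4 called only after the transcript length trend was removed, with filled circles as deposited, open circles after removal and dotted lines at the threshold of 0.58. Fgf5, Klhl11, Acvr2b, H13, Grb10 and Col1a1 lay farther from 0 after removal, and the other genes called as deposited lay closer to it.

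Removing the trend brought in 4 genes. T, the founding T-box factor of the primitive streak, had 210 and 226 normalized counts in KO-1, 60.2 and 62.9 in KO-2 and 16441 and 16055 in WT. The clones thus differed 3.54-fold at a level far below WT. Its gap was 0.52 ± 0.07 (SE, n = 2 per clone, adjusted p = 0.00014) as deposited and 0.59 after removal. The related T-box gene Eomes, which was of interest from earlier results, had 576 and 574 in KO-1, 232 and 279 in KO-2 and 5793 and 5481 in WT. Its gap was 0.56 ± 0.06 (SE, n = 2 per clone, adjusted p = 8.3e-06) as deposited and 0.55 after removal, just short of the threshold for size in both fits, and limma-voom gave 1.19. The other genes brought in were the tight junction claudin Cldn6 (0.58, higher in KO-1), the lysophosphatidic acid receptor Lpar6 (-0.58, higher in KO-2) and Rps24 (-0.59).

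The genes were also grouped into lists of known function, in which calls by limma stand against 0.251% of all genes. Of 16 naive pluripotency genes 1 was called between the clones, Tfcp2l1, but 9 lay higher in KO-1 without overlap and 1 lay higher in KO-2, against 26.1% and 25.5% of all genes. The median gap of the list was 0.21, against 0.00 for all genes, and it was 0.21 after the length trend was removed. Within the list, and chosen after its values were seen, Klf4 had 755 and 788 normalized counts in KO-1 and 454 and 418 in KO-2, and Nanog had 4002 and 4187 in KO-1 and 2957 and 2884 in KO-2. The gaps of 0.46 and 0.41 (adjusted p = 2.8e-05 and 7.6e-05) did not reach the threshold for size. Dppa5a, the most abundant gene of the list in KO-2, went the other way, with 3170 and 3733 normalized counts in KO-1 and 5024 and 4950 in KO-2 (gap -0.47, adjusted p = 0.021). All 16 genes of the list were called between day 0 and day 4 over both clones, as were 6.5% of all genes. The median changes of the list were -1.95 in KO-1 and -1.99 in KO-2. None of 12 core pluripotency genes was called between the clones by limma. Limma-voom called 1 of the 12, higher in KO-2, against 2.23% of all genes called. At an unadjusted p under 0.05, 2 were higher in KO-1 and 4 in KO-2, as were 2822 and 2412 of all 20703 genes. Without overlap, 3 lay higher in KO-1 and 5 in KO-2, against 26.1% and 25.5% of all genes. The median gap of -0.05 became 0.06 after the length trend was removed, where limma-voom called none of the 12.

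Among 12 formative epiblast genes 1 was called, Fgf5, and 9 lay higher in KO-1 without overlap and 1 in KO-2, against 26.1% and 25.5% of all genes, with a median gap of 0.19. Otx2, a homeodomain factor of this state, was chosen after its values were seen and had 448 and 501 normalized counts in KO-1 and 207 and 248 in KO-2. None of 18 primitive streak genes was called by limma as deposited, where 0.251% of all genes were. At an unadjusted p under 0.05, 4 were higher in KO-1 and 4 in KO-2, against 2822 and 2412 of all 20703 genes. Limma-voom called 3, all higher in KO-1, against 2.23% of all genes called. The median gap of that list was 0.01. Between day 0 and day 4, 7 of the 18 were called over both clones, against 6.5% of all genes. The summed normalized count of the list was 4090 and 4786 in KO-1 on day 4 and 4279 and 3887 in KO-2, where WT had 48013 and 47504, and on day 0 it was between 214 and 268 in the clones. Mixl1, a homeodomain factor of the streak, had 43.0 and 51.3 normalized counts in KO-1 and 22.4 and 39.2 in KO-2, where WT had 6928 and 6730. Tfcp2l1, which fell in WT, and Fgf5, which rose, were thus both higher in KO-1.

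Limma called 0.251% of all genes, a share at which the other lineage lists would hold few calls or none. None of 22 endoderm genes, 17 genes of lateral and cardiac mesoderm or 18 members of the BMP pathway was called by limma as deposited. Their median gaps were -0.03, -0.05 and -0.09 on the VST scale, and -0.22, -0.41 and -0.40 by limma-voom, against 0.01 for all genes. Without overlap, 10, 8 and 10 members lay higher in KO-2 and 1, 0 and 2 in KO-1, against 25.5% and 26.1% of all genes. At an unadjusted p under 0.05, 5, 4 and 6 were higher in KO-2 and 1, 0 and 2 in KO-1. Over all 20703 genes these counts were 2412 and 2822. Limma-voom called 1, 0 and 3 members of the lists, all higher in KO-2, against 2.23% of all genes called. Of 18 Nodal pathway genes, Acvr2b was called higher in KO-1 and Lefty1 in KO-2, against 0.251% of all genes called. Without overlap, 9 lay higher in KO-1 and 6 in KO-2, against 26.1% and 25.5% of all genes, and the median gap was 0.07. Lefty2, the paralog of Lefty1, was chosen after its values were seen and had 2743 and 2898 normalized counts in KO-1 and 4148 and 4138 in KO-2, a gap of -0.47. Of 19 neuroectoderm genes Nes was called, higher in KO-1, and no member was called after the length trend was removed. Of that list 4 members lay higher in KO-1 without overlap and 6 in KO-2, against 26.1% and 25.5% of all genes. The median gap of the list was -0.04, or -0.19 by limma-voom. Limma-voom called 1 member in each direction, against 2.23% of all genes called. The list of 38 imprinted genes holds neither the X-linked Xlr3b nor H13, which is also known to be imprinted. Peg10 was called higher in KO-1 and Grb10 and Phlda2 higher in KO-2, against 0.251% of all genes called. Without overlap, 10 of the 38 lay higher in KO-1 and 14 in KO-2, against 26.1% and 25.5% of all genes. Limma-voom called 2 higher in KO-1 and 3 in KO-2, against 2.23% of all genes called, and the median gap of the list was -0.01. Of 32 regulators of H3K36 methylation, Polycomb and DNA methylation, Tet1 and Dnmt3l were called in opposite directions, and 22 lay higher in KO-1 without overlap and 3 in KO-2, against 26.1% and 25.5% of all genes. Their median gap was 0.11 as deposited and 0.05 after removal of the length trend, and their median transcript length was 4475 bases.

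Genes of translation and respiration lay mostly toward KO-2. Of 88 ribosomal protein genes, 82 were higher in KO-2 without overlap and none in KO-1, against 25.5% and 26.1% of all genes. Limma called only Rps12, Rpl14 and Rps21 and limma-voom 14, all higher in KO-2. Over all genes limma called 0.251% and limma-voom 2.23%. The 88 genes had a median gap of -0.39 on day 4 and -0.27 on day 0 but 0.28 on day 2. The day 4 value was -0.12 after removal of the trend. The list has a median transcript length of 1048 bases. Among 93 nuclear genes of the electron transport chain 80 were higher in KO-2 without overlap and 2 in KO-1. Over all genes these shares were 25.5% and 26.1%. The median gap of the 93 genes was -0.24 as deposited and -0.09 after removal. Limma called none of the 93, and limma-voom called 6, all higher in KO-2, against 2.23% of all genes called by limma-voom. For 77 mitochondrial ribosomal proteins the medians were -0.15 and -0.06, and for 17 mitochondrially encoded genes -0.25 and -0.03. The mitochondrially encoded genes, also short, did not follow the trend on day 0, when their median gap was 0.07, as it was on day 2.

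The gaps were set beside residual differentiation, the change of each clone between day 0 and day 4. KO-1 changed in 1361 genes (6.57%) and KO-2 in 1398 (6.75%), against 2870 (13.9%) in WT. Of these, 1099 were called in both clones in the same direction, 262 in KO-1 only and 299 in KO-2 only, and none in opposite directions. A call in 1 clone alone does not show that the clones differed, and only 9 genes (0.0435%) changed their gap between day 0 and day 4 when that difference was tested. Over the mean of both clones 1345 genes (6.5%) changed, and 19 of them were among the 52 that separated the clones. The median size of the gap was 0.62 over the 52 genes and its largest value 0.97. The median size of residual change was 0.79 over the 1345 genes and its largest value 3.22, for Prtg.

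Gene by gene, the gap was larger than the residual change in 35 of the 52 genes and smaller in 17, and it was larger in 7232 of all 20703 genes. The 52 were chosen for a large gap, so their count is a description. For the 11 genes called both as deposited and with the length trend removed, the gap was larger than the residual change in 4. Tfcp2l1 fell by 2.17 in KO-1 and by 2.89 in KO-2, so its gap of 0.97 amounted to 38.4% of the mean change. Fgf5 rose by 1.80 in KO-1 and by 1.07 in KO-2, and T by 1.09 and 0.53. For H13 the gap amounted to 194% of a mean change of 0.45, and for Xlr3b to 625% of one of 0.10. Across 10228 expressed genes the day 4 gap had an r of 0.01 with the WT change from day 0 to day 4, which shares no library with it.

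**Figure D4:**
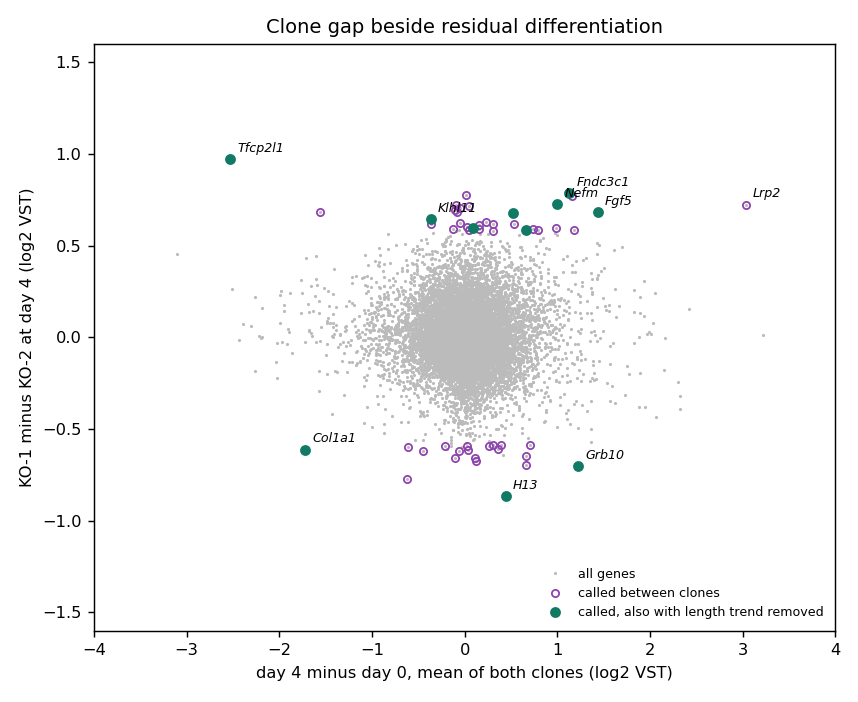
Clone gap on day 4 (vertical axis, log2 VST) against the day 0 to day 4 change averaged over both clones (horizontal axis, log2 VST), with grey points for all 20703 genes, open circles for genes called between the clones and filled circles for those also called with the length trend removed. The gaps lay within ±0.97 for called genes, while the residual changes reached 3.22.

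Over the whole transcriptome the root mean square distance between the clones on day 4 was 0.141. The replicates lay 0.115 apart in KO-1 and 0.0796 in KO-2, a spread that by itself would put the clone means 0.0699 apart. Residual differentiation covered 0.321 in KO-1 and 0.319 in KO-2, and WT differentiation 0.477. The change averaged over both clones covered 0.3145, and the clone distance was 44.8% of that, or 33.9% with the length trend removed. Between the clones the distance was 0.1 on day 0 and 0.0942 on day 2, where replicate spread alone would give 0.0754 and 0.0648.

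When each library was placed along the WT path from day 0 (0%) to day 4 (100%), KO-1 lay at 56.5% and 56.5% on day 4 and KO-2 at 56.0% and 55.8%. The clone means differed by 0.588 percentage points, and with the length trend removed the order turned, to -0.47. An exact permutation test of 2 against 2 libraries cannot give a 2-sided p below 0.33. On day 0 KO-1 had been at 9.11% and 9.16% and KO-2 at 10.7% and 10.8%, and on day 2 KO-1 at 32.0% and 32.1% and KO-2 at 33.0% and 33.0%, while WT reached 41.9% in both libraries. In a principal component analysis of the 500 most variable genes the clones were 0.34 apart on the first component, along which both had moved 21.6 on average from day 0. They separated on the sixth component, by 5.39, which held 0.8% of the variance. On that component the day 4 replicates lay 1.73 apart in KO-1 and 0.774 in KO-2. The components were computed on values as deposited, with the length trend left in.

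**Figure D5:**
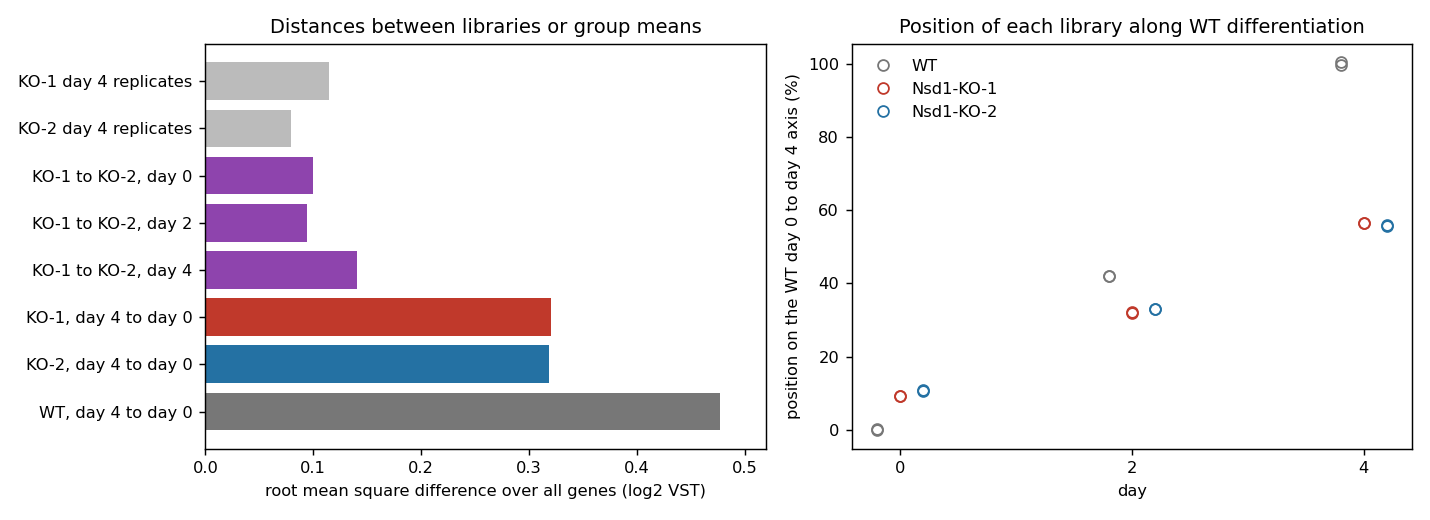
Left, root mean square log2 VST difference over 20703 genes between replicates (grey), between clones on each day (purple) and between day 4 and day 0 of KO-1, KO-2 and WT. Right, position of each library along the WT day 0 to day 4 path in percent, where all 4 knockout libraries of day 4 lay between 55.8% and 56.5%.

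The gap was then followed back in time. On day 0, 6 genes separated the clones (0.029%), all higher in KO-1: Lama1, a laminin chain, Nckap1l, a hematopoietic subunit of the WAVE complex, Xlr3c, the guanine nucleotide exchange factor Mcf2, the zinc finger gene Sall3 and the corepressor Runx1t1. Without KO-1 replicate 2 of day 0 there were 54, of which 36 were higher in KO-2, and without KO-2 replicate 2 there were 8, of which 4 were. Without the first replicate of either clone there were 4, all higher in KO-1. On day 2 there were 9 (0.0435%), with Trh, Gpx4, Otx2, Xlr3c, Ephx2 and Cldn6 higher in KO-1 and Grb10, H13 and Prtg higher in KO-2. The largest was Trh, the thyrotropin-releasing hormone precursor, with 1979 and 1684 normalized counts in KO-1 on day 2 and 513 and 505 in KO-2, a gap of 1.20. No gene was called by limma on all 3 days in the same direction. At an unadjusted p under 0.05 there were 136 such genes. Of the 52 genes of day 4, 2 were also called on day 0 (Runx1t1 and Sall3) and 2 on day 2 (H13 and Grb10).

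The gap of H13 was -0.47 on day 0, -0.75 on day 2 and -0.87 on day 4, and that of Xlr3b was 0.47, 0.54 and 0.59. Runx1t1 had 401 and 276 normalized counts in KO-1 on day 4 and 74.9 and 125 in KO-2, with gaps of 0.58 on day 0, 0.46 on day 2 and 0.62 on day 4. These 3 genes therefore differed in the same direction on each day, though not always past the threshold. Others had hardly any gap to begin with: that of Fgf5 was -0.04 on day 0 and that of Tgfbr3 0.00. Over all 52 genes the sign on day 0 was that of day 4 in 49, and the sign on day 2 was so in 21. Across 10228 expressed genes the day 4 gap had an r of 0.695 with the day 0 gap and -0.354 with the day 2 gap. With the length trend removed these values were 0.507 and -0.00881. The length trend ran the other way on day 2, and its part in these signs was not tested further.

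Limma-voom called 9 genes on all 3 days, which are named here although they were chosen after their values were seen. H13 was higher in KO-2, and the other 8 were higher in KO-1: Xlr3a, Xlr3b, Xlr3c, Mcf2, Bcor, Gm18336, Ephx2 and Igf2bp3. Xlr3a, Xlr3b and Xlr3c are near-identical neighbours on the X chromosome whose reads may be shared, so they are not separate observations. Xlr3c had 357 and 368 normalized counts in KO-1 on day 0, 401 and 386 on day 2 and 157 and 212 on day 4. KO-2 had 103 and 110, 136 and 113, and 67.9 and 76.6 on the same days. WT never exceeded 22.7 counts, so this was a gene on which both clones stood above WT and KO-1 farther so. Igf2bp3, an RNA-binding protein of early embryos, rose in every line: it had 331 and 282 in KO-1 and 146 and 128 in KO-2 on day 0, and 1212 and 1038 against 570.5 and 615 on day 4, while WT reached 2900 and 2725. Bcor, a subunit of a variant Polycomb complex, had 439 and 357 in KO-1 on day 4 and 256 and 263 in KO-2, both below the 1697 and 1494 of WT.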

How the data were processed

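Poly(A) RNA of E14 cells was sequenced as paired 150 base reads. Per the study's methods and the submitters' processing notes, the authors trimmed reads with Trim Galore 0.6.7, aligned them to mm39 with STAR 2.7.11a, kept primary, nonduplicated reads, counted them on exons with featureCounts 2.0.6, dropped genes with a mean count under 1 and deposited log2 values after the variance stabilizing transformation of DESeq2 1.42.0. All 20703 genes in 18 libraries inverted to whole counts (100% of values within 0.01), of which 22.5% to 27.5% were odd between 1 and 20 reads, depending on the library. Both mates of a pair may therefore have been counted, and fragments may be fewer than the counts given. Tests ran on the deposited log2 values.

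Limma 3.58.1 in R 4.3.3 was fitted to 9 groups of 2 libraries with a trended prior, and p-values were adjusted by the Benjamini-Hochberg method over all genes. The alternative was limma-voom on the recovered counts. To remove the length trend, a natural spline (4 degrees of freedom) of each library's log2 deviation on the longest GENCODE M21 transcript of a gene was subtracted. That annotation is GRCm38, so no coordinates are given, and 20592 genes matched by identifier. The longest transcript need not be the one expressed.

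Named genes were Nsd1, the 12 largest gaps in each direction among called genes without overlap, up to 4 called members of each list, genes called on all 3 days, and the 5 largest changes of the gap in each direction. One gene under this rule is not reported here. Other genes, such as Klf4, Nanog, Dppa5a, Mixl1, Lefty2, Kdm5d and Mesp1, and the genes called on day 0 or day 2 were added after their values were seen. The members of the comparison and the gene lists were chosen with earlier results of these data known. In simulated data with 100 genes changed by 1 on the log2 scale and 100 by 2, the day 4 test on VST values called 54 and 90 of them and 0 of 20503 unchanged genes, and limma-voom called 100 and 100 and 0 unchanged. With a length bias added, the VST test called 52 and 87 and 1 unchanged gene. Limma-voom then called 99 and 100 and 30 unchanged, and the length-corrected VST test 52 and 88 and 0 unchanged. Whether the added bias and the spread between replicates matched those of the libraries was not tested. In the libraries, r with transcript length differed between replicates, at 0.42 and 0.24 in KO-1 on day 4. Of the 52 genes called on day 4, 41 were not called with the length trend removed.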

Additional observations from a re-analysis of the deposited data

Results flagged for a closer look

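For 9 genes the clone gap on day 4 differed from that on day 0 in a direct test of the difference in limma (KO-1 minus KO-2, day 4 minus day 0, log2 VST, n = 2 per clone and day). The gap moved toward KO-1 for 6 of them, of which 5 are described here. This split was not stable: limma-voom called 5 toward KO-1 and 5 toward KO-2, and on thinned counts 0 and 1. With the length trend removed limma-voom called 15 and 18, and with length and GC content 15 and 21. Fndc3c1 changed by 0.807 ± 0.08 (SE, adjusted p = 9.5e-05), and its counts in both clones had been under 25 on day 0. Fgf5 changed by 0.725 and Tgfbr3 by 0.674. The desmosome gene Dsp changed by 0.623, with 2085 and 1920 normalized counts in KO-1 on day 4, 1226 and 1394 in KO-2, and 262 and 264 against 380 and 310 on day 0. Ppp4r4, a regulatory subunit of protein phosphatase 4, changed by 0.602.

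The gap moved toward KO-2 for the other 3. None toward KO-2 was called when the knockout libraries were fitted without WT (1 call), or without KO-2 replicate 1 or 2 of day 0 (1 and 6 calls) or of day 4 (1 and 2 calls). Phlda2 changed by -0.686. The kinase gene Sgk1 changed by -0.642, from 1307 and 1440 normalized counts in KO-1 and 803 and 757 in KO-2 on day 0 to 568 and 610 against 659 and 673 on day 4. Lama1 changed by -0.624, from 2428 and 1873 against 1114 and 1211 to 193 and 205 against 197 and 182. The background of this test is 0.0435% of 20703 genes.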

How the results depend on the processing

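Gaps called between the clones on day 4 kept their direction in every alternative run, and the number called did not stay fixed. Fitting the knockout libraries only gave 30 on day 4 and 1 for the change of the gap. The 4 knockout libraries of a day alone gave 0 on days 4, 0 and 2 (limma). Unadjusted, 4471, 1791 and 2462 genes had a p under 0.05. Quantile normalization called 25 genes higher and 32 lower in KO-1, where the values as deposited gave 32 and 20. In the following, counts are given for the gap on days 4, 0 and 2, the change of the gap, residual differentiation of KO-1, of KO-2 and of both, and WT differentiation. Limma-voom gave 462, 33, 48, 10, 4667, 4881, 5902 and 7538. With library totals as the scaling it gave 427, 32, 51, 11, 4629, 4862, 5903 and 7506. On counts thinned to the smallest library it gave 342, 25, 35, 1, 4302, 4417, 5484 and 6995. With the length trend removed it gave 230, 40, 62, 33, 4794, 4939, 5958 and 7499, and with length and GC content 244, 45, 67, 36, 4811, 4948, 5947 and 7565. An adjusted p under 0.05 with no threshold for size gave 2645, 114, 200, 89, 8526, 8378, 10606 and 10962. A threshold of 1 on the log2 scale gave 0, 0, 1, 0, 371, 360, 353 and 1024, all fitted by limma on the VST values, where 5234, 3057 and 1906 genes had an unadjusted p under 0.05 for the gap on day 4, on day 0 and for its change. Limma on VST gave 15 on day 4 and 2 on day 0 with the length trend removed, and 13 and 2 with length and GC content, both chosen after seeing the data. The cause of these shifts was not tested.

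The clone distance as a percent of residual change was 55.1 on log2 counts, 33.9 with the length trend removed and 33.9 with length and GC content. The difference along the WT path was 2.23 points on log2 counts, 0.184 after quantile normalization, -0.47 with the length trend removed and -0.472 with length and GC content. The gap on the first principal component was 0.563% of residual change with 2000 genes, and the widest autosomal median was -0.00754 (0.00754 in size) over all genes. By limma-voom the median gap was 0.36 for naive pluripotency, 0.256 for formative genes, 0.0471 for the primitive streak and -0.51 for electron transport. With the length trend removed it was 0.15 for formative genes, 0.0412 for the primitive streak, -0.12 for ribosomal proteins and -0.0898 for electron transport.

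Leaving out each library of the groups compared in turn gave 21 to 194 genes on day 4, 4 to 54 on day 0, 6 to 10 on day 2, 1 to 17 for the change of the gap, 1385 to 1457 for KO-1, 1383 to 1421 for KO-2, 1336 to 1367 for both and 2855 to 2909 for WT. The distance ranged from 39.0 to 55.8 percent without each day 4 knockout library, and the difference along the WT path from -0.0926 to 1.25 points without each WT library of days 0 and 4. The replicate numbers did not pair the libraries: the correlation of replicate differences ran from -0.612 to 0.636 over 36 pairs of groups and was over 0.1 in 13. A replicate block gave 6 genes for the change of the gap, 1 of them toward KO-2, and 51 genes on day 4, a block within each day 54 and a crossed block 51. Depth limits genes such as Mesp1, with at most 1.28 normalized counts in either clone on day 4, for which no gap was detectable.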

Other observations

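The Y-linked histone demethylase gene Kdm5d had 575 and 484 normalized counts in KO-1 on day 4 and 260 and 292 in KO-2, but 0 and 3.79 in WT. Ddx3y and Eif2s3y, also Y-linked, had reads in every line. Ddx3y had 1364 and 854 in KO-1, 923 and 969 in KO-2 and 1086 and 1096 in WT, and Eif2s3y had 1075 and 958, 991 and 1021, and 840 and 950 in the same order. On day 0 Kdm5d had 16.8 and 14.4 in WT and 559 and 504 in KO-1.

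Nckap1l, a gene of blood cells, had 1284 and 1238 normalized counts in KO-1 on day 4, 903 and 884 in KO-2 and 120 and 124 in WT. Its level in both clones was above WT on day 0 as well, at 1754 and 1579 in KO-1 and 855 and 869 in KO-2 against 114 and 135. By chromosome, the median day 4 gap of genes in the upper part of expression lay between -0.023 and 0.030 over the 19 autosomes.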
